A study of Mus musculus with 2 samples.

Results

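Type 1 conventional dendritic cells (cDC1) were sought among single cells of mouse large skin wounds, and 82 of 24649 filtered cells met the gate. A cell was taken when it carried at least 2 unique molecular identifiers (UMIs, each counting 1 captured mRNA molecule) of Xcr1 and Clec9a together, at least 5 UMIs of the MHC class II gene H2-Aa, fewer than 2 of Ccr7 and fewer than 2 of Cd3d, Cd3e and Cd3g together. These genes chose the cells, so their levels are given as description.

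The 2 libraries came from dorsal wounds 1.8 cm across in male wildtype C57BL/6J mice aged 6 to 8 weeks, taken as 5 mm punches of the wound centre on SD2, day 2 after the scab came off. TLR9agonist_LW wounds received 4 μg of ODN2395, a synthetic CpG oligonucleotide that activates Toll-like receptor 9 (TLR9), on each of days 0, 3 and 6. WT_LW wounds were the control, with PBS per the labels. Each group was 1 library of pooled mice, so no difference below was tested against the spread between animals, and the 95% intervals cover counting error only.

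cDC1 are a scarce lineage of dendritic cells that depends on the transcription factors IRF8 and BATF3 and on the cytokine receptor FLT3. They take up debris of dead cells through CLEC9A and present its antigens on MHC class I to CD8 T cells, a route called cross-presentation. Their receptor XCR1 binds the chemokine XCL1 made by T and NK cells, and in skin many of them carry the integrin CD103 (Itgae) and langerin (Cd207).

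The gate held 44 cells of 11443 in WT_LW and 38 of 13206 in TLR9agonist_LW. Their median depth was 16911 UMIs per cell in WT_LW (range 4456 to 50126) and 13593 in TLR9agonist_LW (3145 to 40325), against 5520 and 6310.5 over all filtered cells. Summed, they held 784274 and 569990 UMIs, and gene levels are given as UMIs per 1000000 of those sums (CPM). A gene with no UMI was set at a floor of 3 counts, which is 3.83 CPM for WT_LW and 5.26 for TLR9agonist_LW.

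Flt3 and Irf8, markers outside the gate's genes, were found in most of the cells, and both were also found in other gated populations. Xcr1 and Clec9a were both detected in 27 of 44 WT_LW cells and 26 of 38 TLR9agonist_LW cells, 21 of the 82 carried Xcr1 alone, and 8 Clec9a alone. Flt3 had a UMI in 37 of 44 cells (84.1%) and 29 of 38 (76.3%), against 0.717% and 0.143% of T cells, whose median depth was 4435.5 and 4844 UMIs. Among the cells gated on Cd209a it was found in 47.3% and 17.6%, and among those gated on Ccr7 in 117 of 234 and 112 of 325. With each cell thinned to 3000 UMIs, Flt3 was found in 12 of 44 and 9 of 38 cells. Irf8, the lineage's defining transcription factor, was found in 44 of 44 and 34 of 38 cells, against 8.17% and 11.3% of T cells, and after thinning in 37 of 44 and 31 of 38. It was found in 68.8% and 54.8% of the Ccr7 cells and in 60.5% and 51.8% of the macrophages gated on C1q genes. Neither Flt3 nor Itgae was detected in 5 WT_LW and 7 TLR9agonist_LW cells.

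Other cell types' markers were present in some gate cells. The summed C1qa, C1qb and C1qc of macrophages reached 5 UMIs in 3 and 2 cells, and the 5 B cell markers held 1 UMI in all. In 12 WT_LW and 10 TLR9agonist_LW cells the summed markers of fibroblasts or of keratinocytes exceeded 60 UMIs, those of macrophages exceeded 80, or those of endothelium or Siglech of plasmacytoid dendritic cells reached 10. Values over the remaining 32 and 28 cells, called the core, stand beside the main ones, with limits set after the values were seen. Within the core the fibroblast markers still had a median of 14 UMIs per cell in WT_LW and 27 in TLR9agonist_LW, against 11 and 21 in T cells. The keratinocyte markers had 4 and 13.5, against 3 and 11 in T cells. For neutrophil markers the core medians were 0.5 and 9.5, against 0 and 8 in T cells, while the neutrophil gene Retnlg had no UMI in any gate cell. Their part in the results below was not tested.

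Flt3 and Irf8 were lower in the cells 1 UMI of Xcr1 and Clec9a short of the gate, but not in all cells that the other limits left out. Cells with exactly 1 UMI of Xcr1 and Clec9a together (32 in WT_LW, 26 in TLR9agonist_LW) had Flt3 at 68.7 and 21.2 CPM, Irf8 at 295 and 111 CPM and the macrophage gene C1qb at 456 and 870 CPM. Those with exactly 2 (15 and 12 cells, inside the gate) had Flt3 at 142 and 71.0 CPM, Irf8 at 725 and 1117 CPM and C1qb at 184 and 297 CPM. With 3 or more (29 and 26 cells), Flt3 stood at 120 and 123 CPM, Irf8 at 1024 and 1190 CPM and C1qb at 67.1 and 28.9 CPM. In TLR9agonist_LW the cells with exactly 2 also had less Itgae (25.8 against 202 CPM) and Cadm1 (38.7 against 98.8 CPM) than those with 3 or more. The Ccr7 limit left out 16 WT_LW cells and 3 TLR9agonist_LW cells, with Flt3 at 127 and 56.5 CPM and Irf8 at 304 and 113 CPM. The Cd3 limit left out 6 and 5 cells, with Flt3 at 21.7 and 154 CPM and Irf8 at 1312 and 951 CPM.

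The share of cDC1-like cells was 0.385% of filtered cells in WT_LW (95% Clopper-Pearson interval 0.280 to 0.516%) and 0.288% in TLR9agonist_LW (0.204 to 0.395%). The log2 ratio of TLR9agonist_LW over WT_LW was -0.42 (-1.08 to 0.24), an interval that includes 0. Among cells with a UMI of the leukocyte gene Ptprc, the shares were 0.612% (43 of 7030) and 0.612% (36 of 5885). Among H2-Aa cells without Cd3 they were 2.23% (44 of 1970) and 2.48% (38 of 1533). No difference in cDC1-like abundance was detectable at these cell numbers on any of the 3 denominators.

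Other antigen-presenting cells, gated in the same way, had other shares. Cd209a cells, which carry a gene of type 2 and monocyte-derived dendritic cells, made up 1.48% (169 cells) and 0.515% (68 cells), a log2 ratio of -1.52 (-1.95 to -1.11). Ccr7 cells, the mature dendritic cells equipped to migrate, made up 2.04% (234 cells) and 2.46% (325 cells). C1q macrophages made up 7.51% (859 cells) and 5.25% (693 cells). The ratio of cDC1-like to Cd209a cells was therefore higher in TLR9agonist_LW, with a log2 ratio of 1.10 (0.30 to 1.89) whose interval lies above 0 for counting error.

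Several cDC1 identity genes not used by the gate stood higher in these cells than in Cd209a cells in both libraries. Naaa, a lysosomal amidase, stood at 938 and 926 CPM, and per cell it had a lowest, median and highest value of 0, 10 and 64 UMIs in WT_LW and 0, 16 and 27 in TLR9agonist_LW. Wdfy4, required for cross-presentation of cell-associated antigen, stood at 356 and 281 CPM (0, 7 and 17 UMIs per cell against 0, 3.5 and 14). Itgae stood at 198 and 154 CPM (0, 3 and 14 against 0, 1.5 and 9). In the 16 and 3 cells that the Ccr7 limit left out, Itgae stood at 229 and 0 CPM. The ranges of all 3 genes overlapped between the libraries. Irf8 exceeded its level in Cd209a cells by 3.82 log2 units in WT_LW and 5.70 in TLR9agonist_LW. Gcsam, a signalling adaptor, had no UMI in Cd209a cells and was at least 5.05 log2 units higher in cDC1-like cells of WT_LW and at least 4.15 in TLR9agonist_LW, against a floor of 3 counts per library. Cadm1, an adhesion molecule, stood at 126 and 82.5 CPM in cDC1-like cells and at 7.29 and 3.55 CPM in Cd209a cells. Dnase1l3, a secreted DNase that is not on the identity list, stood at 75.2 and 80.7 CPM in cDC1-like cells and at 2.92 and 3.55 CPM in Cd209a cells.

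**Figure D1:**
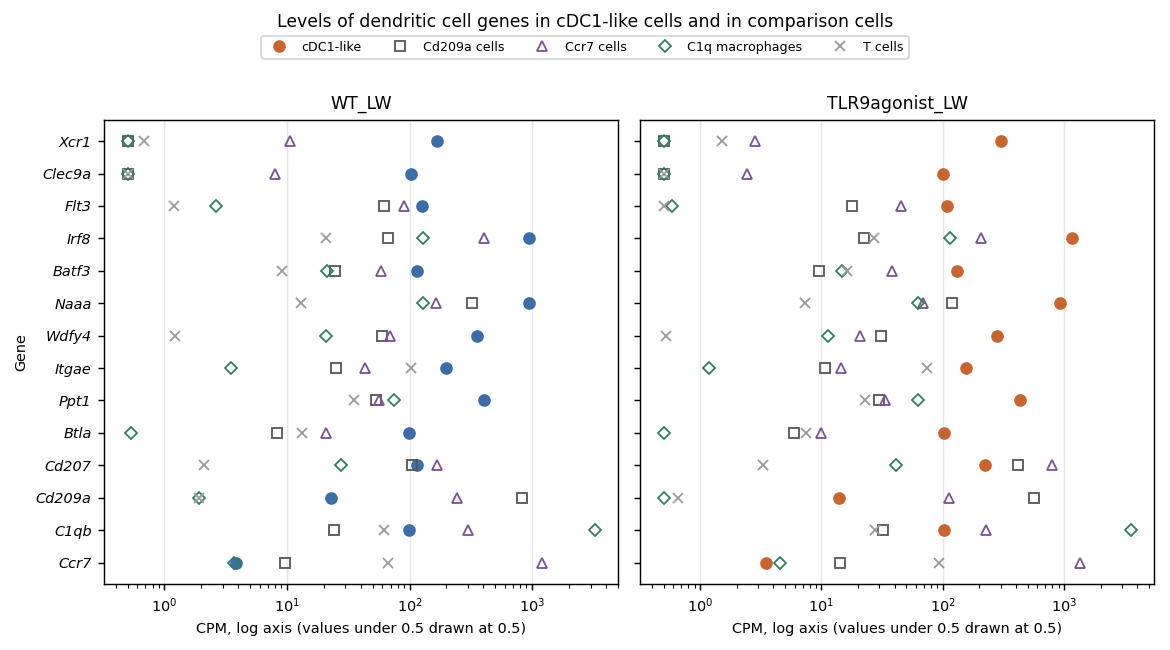
CPM (log axis) of 14 genes in cDC1-like cells, Cd209a cells, Ccr7 cells, C1q macrophages and T cells, with 1 panel for each library and values under 0.5 drawn at 0.5. The cDC1-like points lie highest for Irf8 (941 CPM in WT_LW and 1170 in TLR9agonist_LW) and Naaa (938 and 926) in both panels. Points are sums over 1 library and carry no error bar.

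Between the libraries the identity genes moved little. Of the 21 genes on the list Xcr1 and Clec9a were left out of the comparison because the gate used them. Among the others 14 had at least 50 UMIs and could be compared. Of these 1 was at least 2-fold lower, and none was 2-fold higher. Over all 3183 genes compared, 4.12% were at least 2-fold higher and 4.4% at least 2-fold lower, 8.51% in all. Over the 2045 genes compared in the core these shares were 2.84%, 7.33% and 10.2%. The median log2 ratio of the 14 was -0.23 (core -0.17), beside -0.09 over all genes (core -0.14). The same list had medians of -1.16 in Cd209a cells (12 genes compared), -0.96 in Ccr7 cells (15), -0.25 in C1q macrophages (11) and -0.44 in T cells (16). These medians are not like for like. The cDC1-like gate asks for Xcr1 and Clec9a UMIs in both libraries. The Ccr7 gate does not exclude them, and it held 16 WT_LW and 3 TLR9agonist_LW cells that met the other limits of the cDC1-like gate. These gates come from the same libraries, and no test of the difference between them was possible.

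Single identity genes spread to either side of 0. Irf8 was at 941 CPM, with 1, 15 and 67 UMIs per cell, in WT_LW. In TLR9agonist_LW it was at 1170 CPM with 0, 17 and 43, so its log2 ratio was 0.31 (0.16 to 0.47). Batf3, its partner factor, had 0.18, Flt3 -0.21 (-0.70 to 0.26), Cadm1 -0.61 (-1.15 to -0.10) and Id2, an inhibitor of E proteins, -0.43 (-0.62 to -0.24). The gate genes themselves stood at 167 and 302 CPM for Xcr1 (GRCm38, chr9:123852315-123862029, minus strand) and 103 and 100 CPM for Clec9a. Per cell Xcr1 had 0, 2 and 15 UMIs in WT_LW and 0, 3 and 23 in TLR9agonist_LW, so the ranges overlapped.

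The exception on the list was Rab7b (chr1:131688695-131715439, plus strand), which encodes a small GTPase of late endosomes and the Golgi. It had 351 UMIs over 44 WT_LW cells and 92 over 38 TLR9agonist_LW cells, which is 448 and 161 CPM. Per cell the lowest, median and highest were 0, 7 and 28 UMIs against 0, 2 and 7, so the WT_LW cells reached higher, although the ranges overlapped. Its log2 ratio was -1.47 (-1.82 to -1.14), and -1.45 in the core. Rab7b was also lower in Cd209a cells (-1.84), Ccr7 cells (-1.76), C1q macrophages (-1.27) and T cells (-0.65).

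Of the genes that mark cDC1 of skin and of lymphoid organs, Itgae was detected in most of the cells, and Cd207 and Cd8a in a minority. A UMI of Itgae was found in 34 of 44 WT_LW cells (77.3%) and 26 of 38 TLR9agonist_LW cells (68.4%). After thinning it was found in 17 and 13 cells. T cells carried it too, in 26.9% and 31.4% of cells. Cd207, found on dermal cDC1 and on Langerhans cells, reached 2 UMIs in 8 of 44 WT_LW cells (18.2%, 8.19 to 32.7%) and 12 of 38 TLR9agonist_LW cells (31.6%, 17.5 to 48.7%). All 8 of these WT_LW cells also had at least 2 UMIs of Itgae, as did 8 of the 12. The TLR9agonist_LW cell highest for Cd207, with 52 UMIs, had none of Clec9a, Flt3 or Itgae and was in the core. Itgae stood at 358 CPM in the Cd207 cells and 160 CPM in the others of WT_LW, and at 238 and 107 CPM in TLR9agonist_LW. Cd8a, carried by cDC1 resident in lymphoid organs, had a UMI in 3 of 44 and 8 of 38 cells, against 0.815% and 0.577% of C1q macrophages, which lack it. After thinning 2 and 1 cells were left, so a difference was not detectable at this depth.

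The pathogen sensors of cDC1 were sparse. Tlr9, the receptor of the applied oligonucleotide, had 0 UMIs in both libraries' gate cells, where the floor of 3 counts is 3.83 CPM in the control and 5.26 CPM in the treated library and the exact upper limits are 4.70 and 6.47 CPM. Tlr3, which binds double-stranded RNA, had 12 UMIs in 8 of 44 cells and 16 UMIs in 9 of 38. Tlr11, which binds profilin of protozoa, had 11 UMIs in 10 cells and 22 in 15, against 0 and 0.0238% of T cells with a UMI. These genes were under the limit of 50 UMIs. Of the 32 receptors and adaptors, 8 could be compared and 1 passed the fold, against 8.51% of all genes. The 1 past the fold was Irf7, at 25.5 and 54.4 CPM (log2 ratio 1.09), which had -0.11 in the core. Unc93b1, the chaperone that carries the endosomal receptors to their compartment, had a log2 ratio of -0.30 (-0.73 to 0.12), and Irf5, a factor downstream of them, -0.34 (-0.83 to 0.14). The median of the 8 was -0.27.

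Ligands of cDC1 receptors were measured over all cells of the same wounds. There Xcl1 had 35.0 CPM in the control and 11.1 CPM in the treated library, a log2 ratio of -1.66. Flt3l, the ligand of FLT3, had 8.67 and 3.21 CPM (-1.43). Csf2, which encodes GM-CSF, had 9.68 and 43.4 CPM (2.16). On the receptor side, Csf2ra, the GM-CSF receptor's alpha chain, had a log2 ratio of 0.33 (-0.05 to 0.72) in cDC1-like cells. Its beta chain Csf2rb had -0.49 (-0.81 to -0.18), and -1.83 in the core, where 197 UMIs in WT_LW stood against 41.

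Of the 22 chemokine and growth factor receptors 13 could be compared, and 2 were 2-fold lower, against 4.4% of all genes. Kit, the stem cell factor receptor, had 80 and 28 UMIs, 102 and 49.1 CPM, and a log2 ratio of -1.05 (-1.73 to -0.42; core -1.13). Il1r2, the decoy receptor for interleukin 1, had 65 UMIs in 21 of 44 cells and 8 UMIs in 4 of 38 cells, a log2 ratio of -2.56 (-3.83 to -1.50; core -2.66). A UMI of Il1r2 was found in 16.9% and 30.0% of T cells, and in 7 of 44 and 1 of 38 gate cells after thinning. The median of the 13 receptors was 0.00 over all gate cells and -0.60 in the core, where 4 of 10 were at least 2-fold lower, against 7.33% of all genes.

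Genes of antigen presentation stayed within the fold limit with 1 exception. All 12 compared genes of MHC class II presentation were less than 2-fold apart, with a median log2 ratio of -0.36 (core -0.25). H2-Ab1 had 10, 154.5 and 337 UMIs per cell in WT_LW and 15, 97.5 and 182 in TLR9agonist_LW. Its log2 ratio was -0.59 (-0.65 to -0.54). Cd74, the invariant chain, had -0.10, H2-Eb1 -0.36, the thiol reductase Ifi30 -0.74, and Ciita, the class II transactivator, 0.20 (-0.48 to 0.88). The ranges of H2-Ab1 overlapped, with the highest WT_LW cells above every TLR9agonist_LW cell. In the other gates the list had medians between -0.80 and -0.60.

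For MHC class I and cross-presentation, 21 of 26 genes could be compared and Rab7b alone passed the fold, against 8.51% of all genes. The list's median was -0.18 (core -0.47). The peptide transporter genes Tap1 and Tap2 had log2 ratios of -0.68 (-1.17 to -0.20) and -0.57 (-1.15 to -0.02). Tapbp, which tethers the transporter to class I molecules, had 166 and 84.2 CPM and -0.98 (-1.49 to -0.49), and it passed the fold in the core at -1.25. B2m had -0.05 (-0.19 to 0.08), the proteasome activator Psme1 0.01 (-0.18 to 0.21), and Wdfy4 -0.34 (-0.63 to -0.06).

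Of the 20 costimulation and checkpoint genes 6 could be compared and only Cd83 passed the fold, against 8.51% of all genes. Cd83 (chr13:43784775-43803132, plus strand) encodes a surface protein that stabilises MHC class II and CD86 and marks activated dendritic cells. It had 572 UMIs in WT_LW and 146 in TLR9agonist_LW, or 729 and 256 CPM. Per cell the lowest, median and highest were 0, 15 and 36 UMIs against 0, 2.5 and 15, so the middle WT_LW cell matched the highest TLR9agonist_LW cell. The log2 ratio was -1.51 (-1.78 to -1.25), and -1.40 in the core. A UMI was found in 40 of 44 cells (90.9%, 78.3 to 97.5%) and 22 of 38 (57.9%, 40.8 to 73.7%), in 34 and 14 after thinning, and in 17.2% and 21.7% of T cells. Cd86, the costimulatory ligand of CD28, had 159 and 163 CPM and a log2 ratio of 0.03 (-0.37 to 0.43). In the other gates Cd83 had -0.15 in Cd209a cells, -0.20 in Ccr7 cells, -0.82 in C1q macrophages and 0.98 in T cells.

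The genes with the lowest ratios were chosen by a fixed rule, which asked for at least 50 UMIs, at least 10 gate cells with a UMI and a level at or above that of all filtered cells. Gcnt2 and Plet1 are given in full. Gcnt2 (chr13:40859754-40960892, plus strand), a glycosyltransferase that branches poly-N-acetyllactosamine chains, had 206 UMIs in WT_LW and 16 in TLR9agonist_LW, 263 and 28.1 CPM. Per cell the values were 0, 2 and 31 against 0, 0 and 3. The log2 ratio was -3.23 (core -3.37). Cells with a UMI numbered 34 of 44 (77.3%, 62.2 to 88.5%) and 12 of 38 (31.6%, 17.5 to 48.7%), and 25 and 5 after thinning, against 16.1% and 26.6% of T cells. In other gates Gcnt2 had 0.04 in Cd209a cells, 0.04 in Ccr7 cells, -0.85 in C1q macrophages and 0.53 in T cells.

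Plet1 (chr9:50494525-50505482, plus strand), a GPI-anchored surface protein tied to the migration of dendritic cells, had 337 and 32 UMIs, 430 and 56.1 CPM. Its cells were unequal, with 0, 1 and 90 UMIs in WT_LW and 0, 0 and 5 in TLR9agonist_LW. No TLR9agonist_LW cell exceeded 5 UMIs, while WT_LW cells with none were also common: a UMI was found in 23 of 44 and 12 of 38 cells, and in 11 and 7 after thinning. The log2 ratio was -2.94 (core -2.81). Cells with at least 2 UMIs of Cd207 had Plet1 at 729 and 24.2 CPM in the control and treated libraries, and the others had 360 and 74.2 CPM. In other gates Plet1 had -1.20 in Cd209a cells, -0.49 in Ccr7 cells, 2.41 in C1q macrophages and 2.64 in T cells, of which 4.43% and 17.0% had a UMI.

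**Figure D2:**
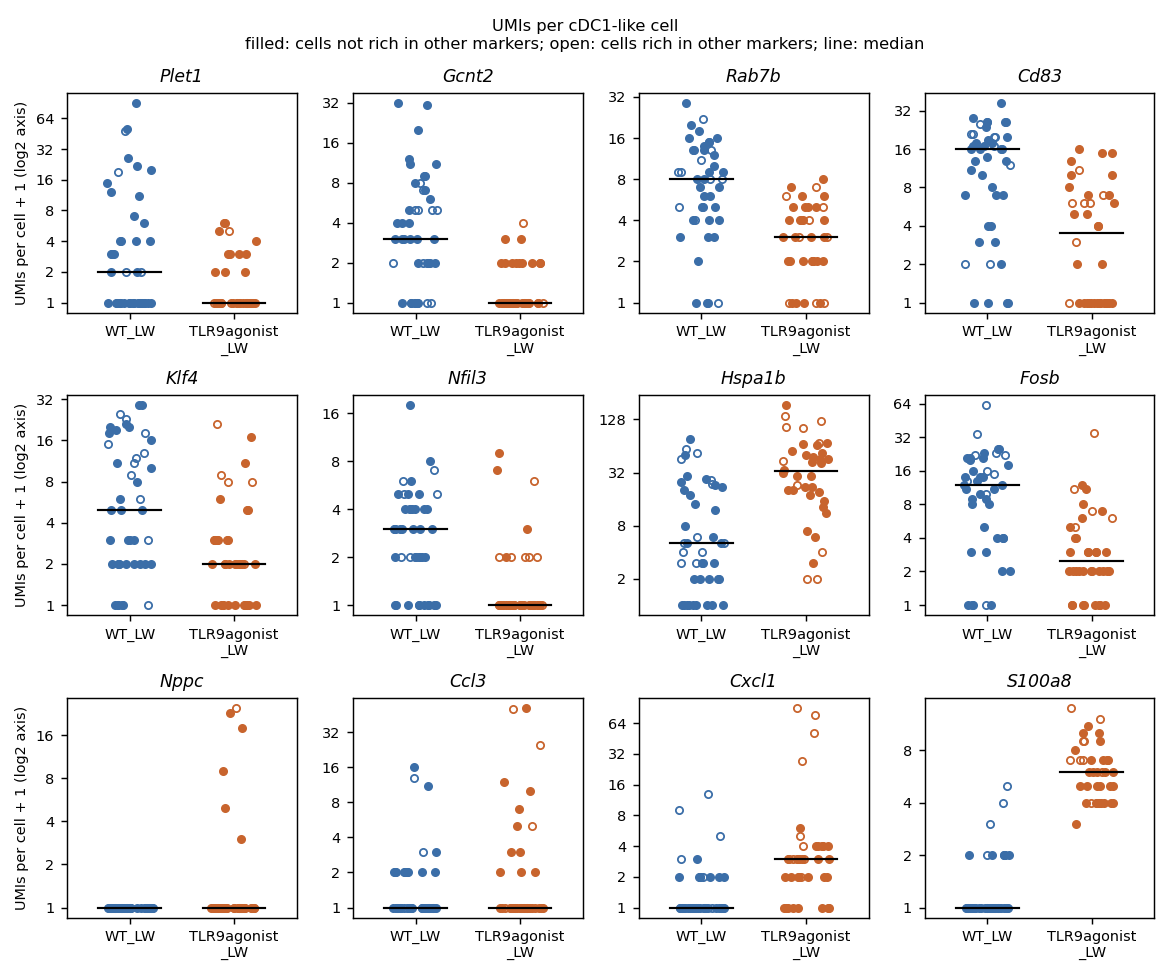
UMIs per cell plus 1 (log2 axis) of 12 genes in the 44 WT_LW and 38 TLR9agonist_LW cDC1-like cells, with filled points for core cells, open points for cells rich in other cell types' markers and a line at the median. Cd83 has medians of 15 and 2.5 UMIs, Rab7b 7 and 2, and Hspa1b 4 and 32, while the medians of Plet1 are 1 and 0 and its highest cells hold 90 and 5.

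Several signalling genes were among the lowest too. Map3k14, the kinase NIK of the alternative NF-kB pathway, had 67 and 7 UMIs in 21 of 44 and 6 of 38 cells, a log2 ratio of -2.80. Dusp4, a phosphatase of MAP kinases, had 61 and 6 UMIs in 17 and 6 cells, a ratio of -2.89. Trib1, a pseudokinase scaffold that targets C/EBP factors for degradation, had 236 and 45 UMIs in 38 and 21 cells. Per cell Trib1 had 0, 4.5 and 22 UMIs against 0, 1 and 8, and a ratio of -1.93 (core -2.45). The ranges of Trib1 overlapped, with most WT_LW cells above the TLR9agonist_LW median. Cmtr1, an mRNA cap methyltransferase, had -2.68, Epb41, of the membrane skeleton, -2.28, and Acox3, of peroxisomal fatty acid oxidation, -2.05. Ears2, a mitochondrial tRNA synthetase, had -3.74, but 1 WT_LW cell held 23 of its 55 UMIs, and the histone gene Hist1h1c had -3.79 on 57 and 3 UMIs. The keratins Krt14 and Krt5 met the rule as well, at -2.28 and -3.40, and turned to 1.81 and 0.65 in the core.

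Among the 16 dendritic cell transcription factors 12 could be compared. None was 2-fold higher and 3 were 2-fold lower, against 4.12% and 4.4% of all genes compared. Nfil3 (chr13:52967209-52981073, minus strand), which cDC1 progenitors need, had 106 and 27 UMIs, 135 and 47.4 CPM. Per cell it had 0, 2 and 17 UMIs in WT_LW and 0, 0 and 8 in TLR9agonist_LW, and the log2 ratio was -1.51 (-2.18 to -0.89; core -1.71). A UMI was found in 34 of 44 and 10 of 38 cells, in 12 and 3 after thinning, and in 32.9% and 53.9% of T cells. The level of Nfil3 in other gates had ratios of 1.19 in Cd209a cells, 0.28 in Ccr7 cells, 0.03 in C1q macrophages and 0.98 in T cells.

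Klf4 (chr4:55527143-55532466, minus strand), better known in type 2 dendritic cells and monocytes, had 349 and 106 UMIs, 445 and 186 CPM. It had 0, 4 and 28 UMIs per cell against 0, 1 and 20, and a log2 ratio of -1.26 (-1.59 to -0.94; core -1.54). In the other gates Klf4 had -0.04 in Cd209a cells, -0.92 in Ccr7 cells, -0.47 in C1q macrophages and 0.09 in T cells. Bcl11a, a factor of lymphoid and plasmacytoid lineages, had -1.35 and fell inside the fold in the core at -0.89. The median over the 12 factors was -0.11 (core -0.10).

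**Figure D3:**
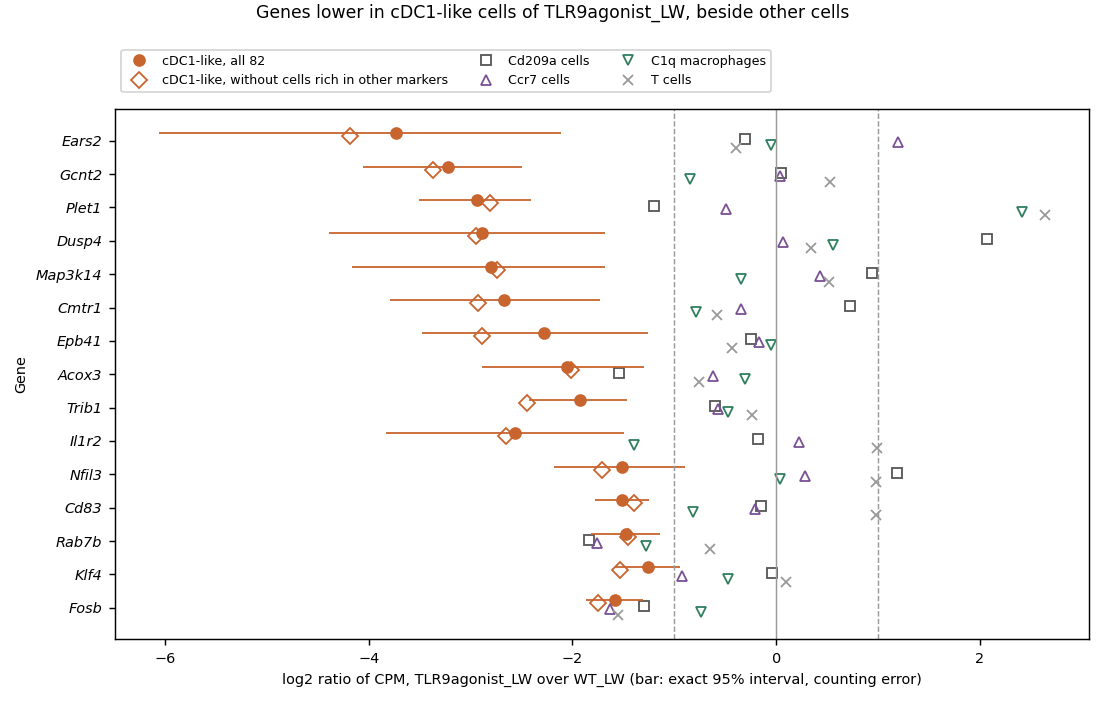
Log2 ratios of TLR9agonist_LW over WT_LW for 15 genes in all 82 cDC1-like cells (points with 95% counting intervals), in the core (diamonds) and in 4 other gates of the same libraries. The cDC1-like values of Gcnt2 (-3.23), Map3k14 (-2.80) and Nfil3 (-1.51) lie left of the dashed 2-fold line, and their values in Cd209a cells are 0.04, 0.94 and 1.19. Rab7b lies left of it in cDC1-like cells, Cd209a cells, Ccr7 cells and C1q macrophages.

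Chemokine genes held many higher values. Of 17 members 13 could be compared, 8 were at least 2-fold higher and 1 was lower, against 4.12% and 4.4% of all genes. The median log2 ratio of the 13 was 2.11 (core 1.80, with 5 of 7 higher, against 2.84% of all genes compared there). The list also had medians above 0 elsewhere, 0.70 in Cd209a cells, 0.49 in Ccr7 cells, 0.21 in C1q macrophages and 0.82 in T cells. Ccl2, a monocyte attractant, had 90.5 and 702 CPM (2.95; core 1.55) and also had 2.41 in T cells. Cxcl1, a neutrophil attractant, had 45.9 and 521 CPM (3.50, and 2.62 in the core) and 1.73 in T cells. Per captured UMI, T cells held more Ccl2 and Cxcl1 than the gate cells in both libraries. In TLR9agonist_LW the T cells had 24732 and 22721 UMIs of 30386166, against 400 and 297 of 569990 in gate cells. The gate cells highest for Cxcl1 there held 90, 76, 50 and 26 UMIs, and all were rich in other cell types' markers. Whether the gate cells made Ccl2 or Cxcl1 was not tested. Over cells with a Flt3 UMI the median of the list was 0.70, and after thinning it was 0.37. Ccl12 had no UMI in WT_LW and 50 in 6 TLR9agonist_LW cells, at least 4.52 log2 units higher against the floor of 3 counts per library.

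The other chemokines were divided. Cxcl2, a neutrophil attractant, had 1310 and 1956 CPM, a log2 ratio of 0.58, and 2.20 in the core. Cxcl3, another neutrophil attractant, was the member past the fold downward, at 61.2 and 7.02 CPM. After thinning a UMI of Cxcl3 was found in 2 and 1 cells. Ccl3, an attractant of monocytes and T cells, had 50 UMIs in 14 of 44 cells and 166 in 13 of 38, 63.8 and 291 CPM. Its cells held 0, 0 and 15 UMIs against 0, 0 and 51, and its log2 ratio was 2.19 (1.73 to 2.68; core 1.80). A few TLR9agonist_LW cells carried most of it, the highest with 51, 50 and 24 UMIs. Those cells had no UMI of Clec9a, Flt3, Irf8 or Itgae, and the cell with 51 was in the core. Ccl4, a neighbour of Ccl3 in function, had 900 and 1147 CPM and 0.35 (core -0.02). Cxcl16, a membrane-bound ligand of CXCR6, had 431 and 286 CPM and -0.59. Cxcl9 and Cxcl10, which draw T cells through CXCR3, had 2.11 and 1.50 (core 1.73 and 2.80) on 14 and 44 UMIs and 53 and 109 UMIs. A UMI of Cxcl9 was found in 6 and 7 cells and of Cxcl10 in 12 and 18.

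Of the 23 cytokines 7 could be compared, with a median of 0.78 (core -0.39 over 2 genes). Past the fold upward were 3, against 4.12% of all genes compared. Tnf had 17 and 49 UMIs in 8 and 10 cells (1.99), Vegfa 1.48, and Inhba, an activin subunit, 1.14 on 3 TLR9agonist_LW cells. Vegfa and Inhba reversed over cells with a Flt3 UMI, to -1.69 and -2.83. Il1b, an inflammatory cytokine processed by the inflammasome, had 1254 and 611 UMIs, 1599 and 1072 CPM, and a ratio of -0.58 (-0.72 to -0.44; core -0.61). In other gates Il1b had 1.55 in Cd209a cells, 1.21 in Ccr7 cells, -0.01 in C1q macrophages and 1.15 in T cells.

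NF-kB feedback genes had 3 of 14 compared members 2-fold higher, from 20 on the list, against 4.12% of all genes. The list's median was 0.07 (core -0.34, with 0 of 7 past the fold, against 10.2% of all genes there). Nfkbia, the inhibitor induced by NF-kB, had 525 and 1125 CPM (1.10; core 0.88), and Icam1, an adhesion molecule, 39.5 and 153 CPM (1.95; core 0.43). Map3k8, a kinase upstream of ERK, had 21 and 49 UMIs in 12 and 20 cells, a log2 ratio of 1.68 (0.92 to 2.49). The core value of Map3k8 was 2.34, from 8 and 30 UMIs.

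The 12 genes with the highest ratios under the fixed rule were Slpi, Gla, Cxcl9, Gpnmb, Clec4e, Lpl, Mmp12, Icam1, Ccl3, Hspa1b, Tnf and Map3k8. Mmp12, a macrophage elastase, had 70 UMIs in 8 WT_LW cells and 227 in 5 TLR9agonist_LW cells, of which 1 held 195, and its ratio of 2.16 became -5.48 over cells with a Flt3 UMI. Slpi, a protease inhibitor, Gpnmb, a glycoprotein of macrophages, and Lpl, the lipoprotein lipase, turned to -2.03, -0.87 and -1.37 over those cells. Past the fold in all gate cells and in the core alike were 32 genes higher, of 131 and 58, and 69 lower, of 140 and 150.

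Heat shock and immediate early genes lay on opposite sides of 0. Heat shock genes had 4 of 11 members 2-fold higher and none lower, against 4.12% and 4.4% of all genes. The list's median was 0.83 (core 0.69, and 0.20 over cells with a Flt3 UMI). Hspa1b (chr17:34956436-34959238, minus strand), an inducible HSP70 chaperone, had 0, 4 and 75 UMIs per cell in WT_LW and 1, 32 and 185 in TLR9agonist_LW. Its level was 717 and 2886 CPM, a log2 ratio of 2.01 (1.87 to 2.15; core 2.06). The middle TLR9agonist_LW cell held more than the middle WT_LW cell, and the ranges overlapped. Its near-identical copy Hspa1a had 1.33, and reads of the pair may be split between them by the counting, so the division is uncertain. Hsph1 had 1.37 and Dnajb1 1.17. The other gates had Hspa1b at 1.66 in Cd209a cells, 1.31 in Ccr7 cells, 1.71 in C1q macrophages and 1.78 in T cells, and list medians between 0.63 and 1.09.

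Promoters of many heat shock genes are known to hold heat shock elements, inverted repeats bound by HSF1. The core of such an element was searched as GAANNTTC or TTCNNGAA, each of which reads the same on both strands, in the 250 bases before each start in the RefSeq table (GRCm38.p6). A match stood in 12.8% of 32851 promoters and 14.5% of 27025 genes, and in 6 of the 11 heat shock genes (Hspa1a, Hspa1b, Hsph1, Hspe1, Hspd1 and Dnaja1). The matches of Hspe1 and Hspd1 lie in the same stretch, chr1:55088031-55088104, read on opposite strands. Hspa5 and both listed starts of Dnajb1 held no match. Of the 11 genes Hspa8, Hsp90aa1 and Hsp90ab1 had no entry in the table. Shown, with the match in capitals, are the stretches of Hspa1b and Hsph1, which hold one and were past the fold. The Hspa1b stretch (chr17:34959307-34959370, minus strand) is letter for letter that of Hspa1a at chr17:34972225-34972288, and its match begins 104 bases before the start. The Hsph1 stretch is chr5:149636334-149636397, minus strand, with the match 54 bases before the start.
Hspa1b: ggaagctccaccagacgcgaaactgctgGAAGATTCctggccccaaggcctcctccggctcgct
Hsph1: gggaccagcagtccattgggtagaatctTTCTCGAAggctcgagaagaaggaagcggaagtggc
A match describes the letters only, and no binding was measured.

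AP-1 and other immediate early genes went the other way. Of 20 members 18 could be compared, 2 were 2-fold lower and 1 was higher, against 4.4% and 4.12% of all genes. The list's median was -0.46 (core -0.32, with 5 of 18 lower, against 7.33% of all genes there). Fosb had 540 and 131 UMIs, 689 and 230 CPM, and -1.58 (-1.87 to -1.30; core -1.75), and Fos 1286 and 572 CPM and -1.17 (-1.35 to -0.99; core -1.07). Ier3 had 1.50 and turned to -0.24 in the core. Fosb had ratios of -1.30 in Cd209a cells, -1.63 in Ccr7 cells, -0.74 in C1q macrophages and -1.55 in T cells. The whole list had medians of -0.14, -0.37, -0.10 and -0.16 in these gates, beside -0.29, -0.27, -0.17 and -0.32 over all genes.

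**Figure D4:**
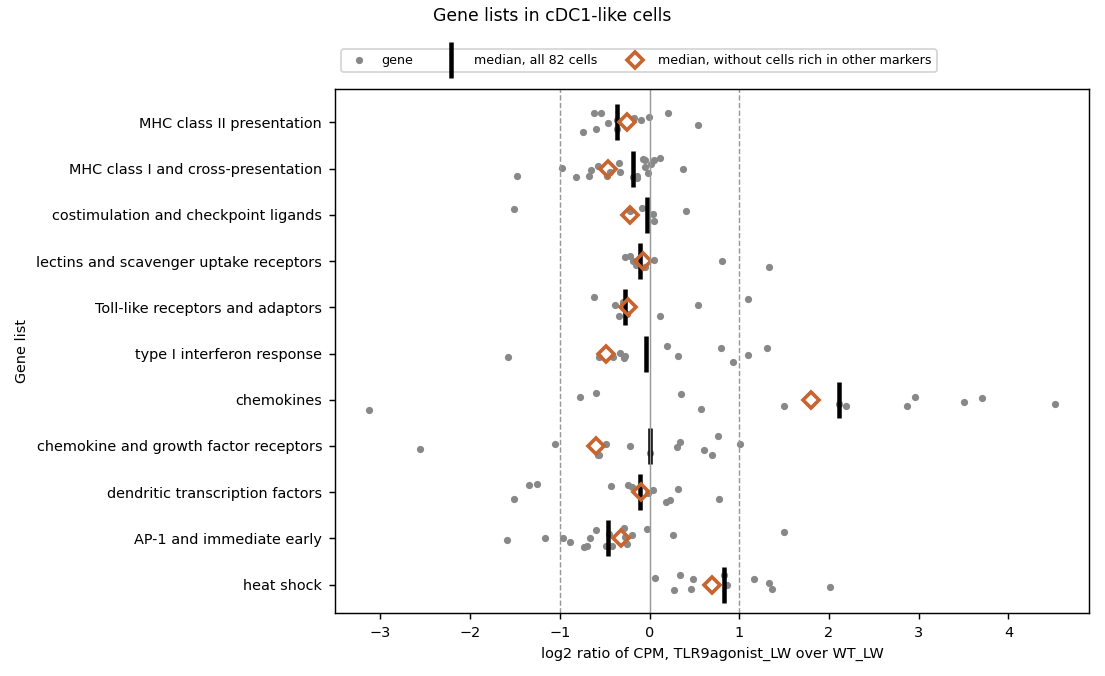
Log2 ratios of TLR9agonist_LW over WT_LW for the compared genes of 11 lists in cDC1-like cells, with a dot per gene, a black bar at the median over all gate cells and an orange diamond at the median over the core. The chemokine list has the highest median (2.11; core 1.80), followed by heat shock (0.83; core 0.69), and the AP-1 list a low one (-0.46; core -0.32).

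Cycling cDC1-like cells were found in both libraries. The proliferation genes Mki67 and Top2a together reached 5 UMIs in 6 of 44 cells (13.6%, 5.17 to 27.4%) and 4 of 38 (10.5%, 2.94 to 24.8%), intervals that overlap. Of the 20 S phase genes 6 could be compared, with a median log2 ratio of 0.08, and of the 20 G2/M genes 4, with -0.34.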

How the data were processed

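Single cells of the recombined epidermis and dermis of the wound centre, freed of dead cells, were profiled by 10x 3′ sequencing, with 1 library per group pooled from 5 or 6 mice (the study gives both numbers). The deposited files hold raw UMI counts per gene and cell; per the labels and notes the authors used fastp, Cell Ranger (version 4.0.0 in the matrix header) and Seurat, and the notes name build mm9. The counts carry no coordinates, and positions were joined by Ensembl identifier to GENCODE M21 (GRCm38). Whether reads of overlapping or near-identical genes were shared out is not given in the sources used here. The labels say PBS for the control and a spray, the text a control oligonucleotide in 1 place and drops or injection.

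Deposited were 12800 WT_LW and 13751 TLR9agonist_LW cells with 99374045 and 132339022 UMIs. Kept were cells that reached 500 UMIs and 300 genes without passing 15% mitochondrial UMIs. Of barcodes, 47 occurred in both libraries, including those of 3 gate cells. Counts were summed over gate cells per library, with exact Poisson intervals for levels, exact Clopper-Pearson intervals for shares and exact conditional intervals for ratios, all at 95%. With 1 library per group no test was run, and no p-value is given. A gene was compared when it had at least 50 UMIs over both libraries, and past the fold at a log2 ratio of at least 1 in size. Genes of the gate were left out of the list comparisons in cDC1-like cells. Detection was also counted with cells thinned to 3000 UMIs (no gate cell was shallower). Comparison gates were Cd209a cells (Cd209a at least 2, H2-Aa at least 5, no Xcr1 or Clec9a, C1q sum under 5), Ccr7 cells (Ccr7 at least 2, H2-Aa at least 5), C1q macrophages (C1q sum at least 10, no Xcr1 or Clec9a, Cd209a under 2) and T cells (Cd3 sum at least 2, H2-Aa under 5). The first 3 also asked for a Cd3 sum under 2, and Cd209a cells and C1q macrophages for Ccr7 under 2.

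Named genes were the markers, the members of 32 gene lists past the fold or needed for an account by role, the 12 highest and 12 lowest ratios under the rule given in the report, which also left out gate, mitochondrial, ribosomal, unnamed, antigen receptor and sex-linked genes, and the 15 genes with the highest excess over Cd209a cells. Gate, members and lists were chosen with earlier results of these data known. Of 457 list symbols 453 matched. A member of the receptor list is not reported here. Scrublet (scanpy 1.11.5) marked 0 cells at its automatic threshold, so leaving out the top 10% of scores was an alternative. Whether its scores find doublets in these libraries was not tested. Alternatives changed the cell filter, the gate, the count limit, depth and the cells used. The computations were tested on simulated data and ran in Python 3.11.15 with scipy 1.17.1, matplotlib 3.10.9, pandas 2.3.3 and numpy 2.4.6.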

Additional observations from a re-analysis of the deposited data

How the results depend on the processing

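The share of cDC1-like cells moved by less than its counting interval in 6 of 6 alternatives. The number of genes at least 2-fold higher was 131 and became 60 with a UMI of each of Xcr1 and Clec9a required, 58 in the core, 86 over cells with a Flt3 UMI, 350 and 32 at limits of 20 and 200 UMIs, and 21 after thinning. The number lower was 140 and became 423 and 31 at those limits and 28 after thinning. Of 207 list medians under the alternatives 192 moved by no more than the typical counting error of their single members, and 15 moved by more. The chemokine median moved from 2.11 to 1.40 with both receptors required, 0.70 with Flt3, 0.80 without cycling cells, 1.39 at 200 UMIs, 1.40 as a mean per cell and 0.37 after thinning. The heat shock median moved to 0.31, 0.20 and, with the top cell left out, 0.53. Cytokines moved from 0.78 to 0.023 at a receptor sum of 3 and changed sign with Flt3 (-0.27) and without the top cell (-0.11). AP-1 moved to -0.73 after thinning, and in the core receptors moved to -0.60 and interferon gamma genes changed sign, from 0.20 to -0.57.

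Of 810 values of named genes 676 stayed within counting error, 111 moved and 23 reversed. Reversed with both receptors required were Clec4e (-0.67), Gla (-0.25) and Mmp12 (-1.67). At a receptor sum of 3, Gpnmb reached -0.38, Lpl -0.99 and Mmp12 -2.49. With Flt3 required, Gpnmb had -0.87, Inhba -2.83, Lpl -1.37, Mmp12 -5.48, Slpi -2.03 and Vegfa -1.69. In the core, Clec4e had -1.15, Ier3 -0.24, Irf7 -0.11, Krt14 1.81, Krt5 0.65 and Mrc1 -0.054. Without the highest doublet scores Icam1 had -0.085 and Krt14 0.14, without the top cell Inhba had -1.96 and Slpi -1.01, and after thinning Cxcl9 had -0.79. The cause was not tested. Leaving out cells with 5 UMIs of other cell types' markers left 1 and 0 cells and gave no value. No paired analysis was possible because each group was 1 library.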

Other observations

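Interferon response genes of cDC1-like cells did not move as a block. Of the 12 compared genes of the type I interferon list 2 were at least 2-fold higher in TLR9agonist_LW and 1 lower. Over all genes compared the shares were 4.12% and 4.4%. The median log2 ratio of the 12 was -0.04 (core -0.48). Ifi27l2a, a mitochondrial protein induced by interferon, had 78 and 141 UMIs in 22 of 44 and 24 of 38 cells, a ratio of 1.31 (0.91 to 1.73; core 1.56). Stat2, which carries the signal of the interferon receptor, had 70 UMIs in 31 cells and 17 in 11 cells, a ratio of -1.58 (-2.44 to -0.80; core -1.86). Ifi203, a PYHIN family protein on the list of 14 cytosolic DNA sensing genes, had 43.4 and 111 CPM and 1.35 (core 1.05), where the 4 compared genes of that list had a median of 0.29. Of 7 compared interferon gamma genes 2 were higher, Cxcl9 and Cxcl10, against 4.12% of all genes, and the list's median was 0.20 (core -0.57). Ifngr1, the receptor's ligand-binding chain, had -0.58 (core -1.05).

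The lectin and glycolysis lists each held 1 member past the fold, against 8.51% of all genes compared. Among 8 compared lectins and uptake receptors the median was -0.10, and Mrc1, the mannose receptor, passed the fold at 1.33 but had -0.05 in the core. The 13 compared glycolysis genes had a median of -0.07, and Vegfa, which is on that list too, was the member past the fold. In the core 11 of them could be compared, with a median of 0.14, 0 higher and 2 lower past the fold.

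A pair of genes chosen after their values were seen were found in few of the gate's cells. Nppc, which encodes C-type natriuretic peptide, had 0 UMIs in the 44 WT_LW cells and 77 UMIs in 6 of the 38 TLR9agonist_LW cells, with 24 in the highest. That is at least 5.14 log2 units higher against the floor of 3 counts per library, and 5 of the 6 cells were in the core. In TLR9agonist_LW a UMI of Nppc was found in 0.547% of T cells, in 0 of 68 Cd209a cells, in 1.54% of Ccr7 cells and, with 268 UMIs, in 2.32% of cells holding at least 10 UMIs of Col1a1 and Col1a2 together, fewer than 5 of H2-Aa and 0 of Ptprc. Il12b, a subunit of interleukin 12, had 1 UMI in WT_LW and 28 in 3 TLR9agonist_LW cells, a log2 ratio of 5.27 (2.67 to 10.6). The Ccr7 cells held more of it in both libraries, 1030 UMIs in 14.5% of cells and 369 in 8.31%.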
